A study of Mus musculus with 6 samples.

Results

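The 10 genes described here encode proteins that build stress granules: G3bp1, G3bp2, Tia1, Tial1, Caprin1, Pabpc1, Ddx3x, Fmr1, Fxr1 and Fxr2. They were chosen by gene symbol from the 17971 genes of the deposited table, all 10 were found, and all 10 were among the 14338 genes with enough counts to be tested. RNA was sequenced from dorsal root ganglia (DRG), the sensory ganglia beside the spinal cord, of mouse embryos at E13.5. The 3 cKO libraries came from Wnt1-cre+/-;Ybx1fl/fl embryos and the 3 Ctrl libraries from Ybx1fl/fl littermates, so both groups carried floxed Ybx1 and only cKO carried Cre. Wnt1-driven Cre acts in the neural crest, which gives rise to the neurons and glia of the ganglia but not to their vessels or blood cells. The effects of Cre itself and of losing Ybx1 cannot be told apart, since no group had Cre with intact Ybx1. All embryos were described as male, and strain was not given in the sources used here.

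Stress granules are clusters of mRNA and protein that form in the cytoplasm when translation initiation stalls, for instance after phosphorylation of the initiation factor eIF2α. G3BP proteins are the hubs that hold the network together, with Caprin1 as their partner; TIA proteins, the cytoplasmic poly(A)-binding protein, the helicase DDX3X and the FMRP family are resident RNA-binding proteins. YB-1, the product of Ybx1, is itself found in stress granules and has been reported to bind G3BP1 mRNA and raise its translation in tumour cells. RNA-seq measures the mRNAs of these proteins, not the proteins or the granules. In whole ganglia, fewer cells of a type and less RNA per cell cannot be told apart.

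YB-1 was named for binding the Y box, an inverted CCAAT element of promoters, so the starts of the members were searched for it. RefSeq promoters of GRCm38.p6, each 300 bases from 250 before to 50 after a start, were given for 9 members (13 promoters; Pabpc1 was not in the table) and for 11297 of the genes tested (14523 promoters). The letters CTGATTGG, on either strand, stood in 1 of the 13 member promoters, that of an inner start of G3bp2, and in 5.55% of the promoters of tested genes. The shorter CCAAT, of which the Y-box letters hold the inverse ATTGG, stood on either strand in promoters of 2 of the 9 members, G3bp1 and G3bp2. Among tested genes with a promoter 43.0% held it. The windows show that G3bp1 held CCAAT letters at 3 places and G3bp2 at 1, with the matched letters in capitals:

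G3bp2, chr5:92083785-92083814, minus strand, 205 bases before the start: caaactgatgcCTGATTGGctggcgctgtg

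G3bp1, chr11:55469511-55469540, plus strand, 229 bases before the start: gaccatctgagtATTGGcgaggtttcgtgt

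G3bp1, chr11:55469608-55469637, plus strand, 132 bases before the start: caaagacgctgtCCAATcatagccaagggg

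G3bp1, chr11:55469644-55469673, plus strand, 96 bases before the start: ggcgaggcggccATTGGtccctgcatgcga

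A second set of letters, CGCATGCG, reads the same on both strands and is the core of the site bound by NRF1, a transcription factor of nuclear genes for mitochondria. It was looked for after the sequences had been seen, and does not overlap the CCAAT letters. It stood near a start of 3 of the 9 members, G3bp2, Tia1 and Fmr1, and of 4.05% of the tested genes with a promoter. The TATA box letters TATAAA were searched as well, on either strand. They stood in a promoter of 1 of the 9 members, G3bp1, and of 8.84% of the tested genes with a promoter. The CGCATGCG matches are shown with the core in capitals, and they are descriptions of the letters only:

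G3bp2, chr5:92137892-92137921, minus strand, 185 bases before its outer start: cagccgcggtgCGCATGCGcggggacgtgg

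Tia1, chr6:86404235-86404264, plus strand, at base 28 after the start: agctggctgtgCGCATGCGcggcacgggtc

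Fmr1, chrX:68678438-68678467, plus strand, 92 bases before the start: acccaggagggCGCATGCGcgtgctccact

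The members differed in where and how they are encoded. Ddx3x (X, 13280496 to 13293988, plus strand) and Fmr1 (X, 68678536 to 68717963, plus strand) are X-linked, and G3bp1 (11, 55469657 to 55500888, plus strand) and Fxr2 (11, 69632971 to 69653297, plus strand) share chromosome 11. G3bp2 lies on chromosome 5 (92052145 to 92137725, minus strand), Tia1 on 6 (86404203 to 86433405, plus strand), Tial1 on 7 (128439772 to 128461726, minus strand), Caprin1 on 2 (103762945 to 103797669, minus strand), Pabpc1 on 15 (36595658 to 36609581, minus strand) and Fxr1 on 3 (34020058 to 34069980, plus strand), all in GRCm38.p6. In the longest coding transcript of GENCODE M21, the 3′ untranslated region was longer than the median of tested genes, 1184 bases, for 8 members, up to 5170 bases in G3bp1. Pabpc1, at 439 bases, and Fxr2, at 598 bases, were the exceptions. Exons of G3bp2 overlap those of Gm26582 on the opposite strand and exons of Fxr1 those of Dnajc19. On the same strand, exons of G3bp1 overlap those of Mir7652, of Tia1 those of Gm44790 and of Fmr1 those of Gm27838. Reads of the same-strand partners may be shared. Because it is not stated whether the counting used strand, so may reads of the opposite-strand partners.

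All 10 members were well expressed in the ganglia, over a range of more than 10-fold. TPM, a share of transcripts after division by length, was highest for Pabpc1, which coats poly(A) tails, at 399 ± 20.04 (SD over the 6 libraries), and next for Caprin1, a G3BP-binding protein, at 354 ± 21.3. Ddx3x (154 ± 17.1 TPM) and G3bp2 (150 ± 10.2 TPM) followed, and could not be ordered, since Ddx3x was above G3bp2 in 4 of 6 libraries. G3bp1 stood at 123 ± 5.53 TPM, below G3bp2 in every library and above Fxr1 (103 ± 2.86 TPM) in every library. Fxr1, Fxr2 (92.5 ± 7.59 TPM) and Tia1 (80.8 ± 11.2 TPM) formed a run of neighbours whose ranges overlapped, each above the next in 5 of 6 libraries. Tial1 (46.3 ± 5.09 TPM) and Fmr1 (31.3 ± 3.32 TPM) were lowest, with ranges apart from each other and from Tia1. Among tested genes the members lay between the 64.1 and 97.6 percentile of mean TPM. The counts behind these values were 1140 to 12768 per member and library, of 16464264 to 17446385 per library.

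**Figure D1:**
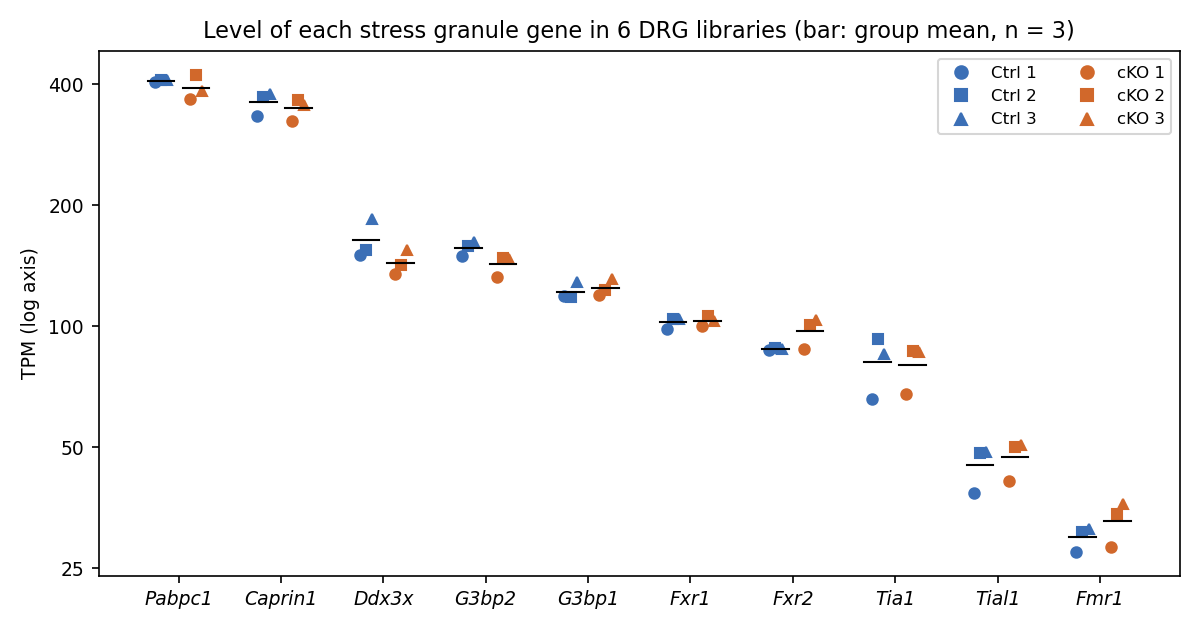
TPM (log axis) of the 10 stress granule genes, ordered by mean level, in the 3 Ctrl (blue) and 3 cKO (orange) libraries, with marker shapes for the replicate number and bars for group means. Pabpc1 and Caprin1 stand at 324 TPM or more in every library. In both groups the number 1 library is the lowest for every member except G3bp1, which is lowest in Ctrl replicate 2.

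The comparison asked whether the mRNAs of stress granule proteins differ in ganglia with reduced Ybx1. The knockout itself was plain in the libraries: Ybx1 stood at 927, 809 and 817 normalised CPM (counts scaled by library total and TMM factor) in Ctrl replicates 1 to 3 and at 137, 122 and 108 CPM in cKO replicates 1 to 3. Against that loss, no stress granule gene changed at an edgeR adjusted p under 0.05, while 0.481% of all tested genes did, 0.112% higher and 0.370% lower in cKO. Of the genes called, 76.8% were lower with TMM scaling and 63.6% with library totals. At an unadjusted p under 0.05 edgeR gave 2 of 10 members, both lower in cKO (Ddx3x and G3bp2), against 10.7% of tested genes. DESeq2 and limma-voom also called 0 of 10. The log2 fold changes ran from -0.19 to 0.13 with a median of -0.04, 6 negative and 4 positive, beside a median of 0.0044 over all tested genes. Their median size without sign was 0.065, against 0.085 over all genes. The 95% intervals, taken 1 gene at a time, reached from -23.0% (Ddx3x) to 21.0% (Fmr1) over the 10 genes.

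Same-numbered libraries resembled each other, and with the replicate number as a block edgeR called 1 member, Ddx3x, as lower, where 5.33% of tested genes were called 3.56% lower and 1.76% higher. In TMM-scaled CPM the groups did not overlap for 4 of 10 members, G3bp2, Ddx3x and Caprin1 lower in cKO and Fxr2 higher, against 16.6% of all tested genes, 8.77% lower and 7.83% higher. In deposited TPM they did not overlap for 1 member only, G3bp2, against 14.1% of tested genes. In CPM by library totals they did not overlap for 4 members, G3bp2 and Ddx3x lower and Fxr2 and Fmr1 higher, against 17.5% of tested genes. In all 3 same-numbered pairs the cKO library was lower in TMM-scaled CPM for G3bp2, Ddx3x and Caprin1, as for 20.3% of tested genes. It was higher in all 3 pairs for Fxr2 and Fmr1, as for 19.6% of tested genes. The other 5 members went both ways on that scale. In TPM, G3bp1 and Tial1 were also higher in all 3 pairs, and in CPM by library totals G3bp1 was higher in all 3 and Caprin1 went both ways.

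**Figure D2:**
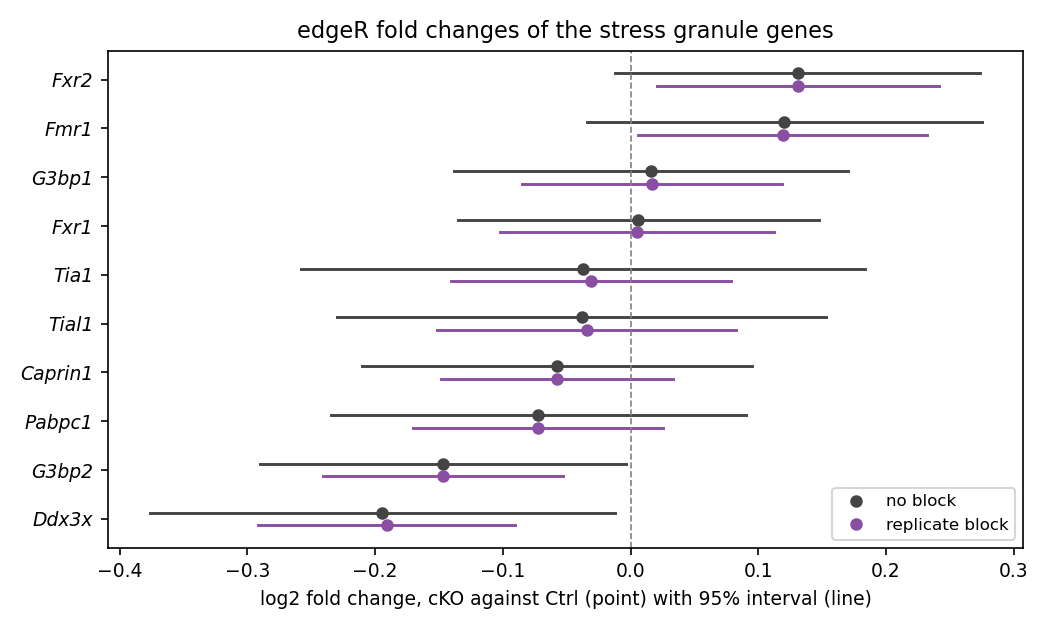
Log2 fold change of each member, cKO against Ctrl, from edgeR without (grey) and with (purple) the replicate block; points are estimates and lines 95% intervals. The intervals of Ddx3x and G3bp2 lie below 0 in both models, and those of Fxr2 and Fmr1 lie above 0 with the block only.

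Ddx3x, a DEAD-box RNA helicase that helps ribosomes start on structured mRNAs, had the estimate furthest from 0 among the members, a change of -12.6% in cKO. It stood at 386, 366 and 441 CPM in Ctrl replicates 1 to 3 and at 351, 331 and 360 CPM in cKO replicates 1 to 3. Every cKO library was below every Ctrl library in CPM, though not in TPM, and Ctrl replicate 3 was the highest. The log2 fold change was -0.19 (SE 0.08, 95% interval -0.38 to -0.01, edgeR adjusted p 0.432). With the block it was -0.19 (SE 0.05, edgeR adjusted p 0.0282), the call named above. In the blocked model by edgeR, library totals in place of TMM scaling gave -0.16 (adjusted p 0.0520), removing both libraries numbered 2 gave -0.22 (0.169) and removing both numbered 3 gave -0.14 (0.145), so the call was lost in each with the direction kept. Without both libraries numbered 1 it held, at -0.22 (edgeR adjusted p 0.000689). Leaving out single libraries in the model without the block gave log2 fold changes from -0.25 (without Ctrl replicate 2) to -0.11 (without Ctrl replicate 3). The Y-linked paralogue Ddx3y, named here after its values were seen, stood at 37.8, 46.7 and 54.4 CPM in Ctrl and 54.4, 48.7 and 52.5 CPM in cKO (log2 fold change 0.16, SE 0.11, edgeR adjusted p 0.676). Ddx3x thus had the lower and Ddx3y the higher estimate in cKO. Neither passed without the block, and Ddx3y did not pass with it (edgeR adjusted p 0.387). The groups overlapped for Ddx3y, and it was lower in cKO in pair 3.

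The G3BP pair, whose proteins nucleate the granule, did not show the same estimate for both genes. G3bp2 stood at 355, 345 and 357 CPM in Ctrl and 319, 319 and 316 CPM in cKO, the tightest values of any member. The groups were apart, with a spread within groups lower than in all but 0.279% of tested genes. The log2 fold change was -0.15 (SE 0.07, 95% interval -0.29 to -0.0035, edgeR adjusted p 0.453). With the block the edgeR adjusted p was 0.0694. G3bp1 stood at 171, 157 and 174 CPM in Ctrl and 176, 160 and 171 CPM in cKO, with full overlap (log2 fold change 0.02, SE 0.07, 95% interval -0.14 to 0.17, edgeR adjusted p 0.964). Caprin1, which binds both G3BPs, stood at 742, 758 and 779 CPM in Ctrl and 733, 736 and 721 CPM in cKO. Its groups were apart by a small margin in CPM and overlapped in TPM (log2 fold change -0.06, SE 0.07, 95% interval -0.21 to 0.09, edgeR adjusted p 0.846).

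**Figure D3:**
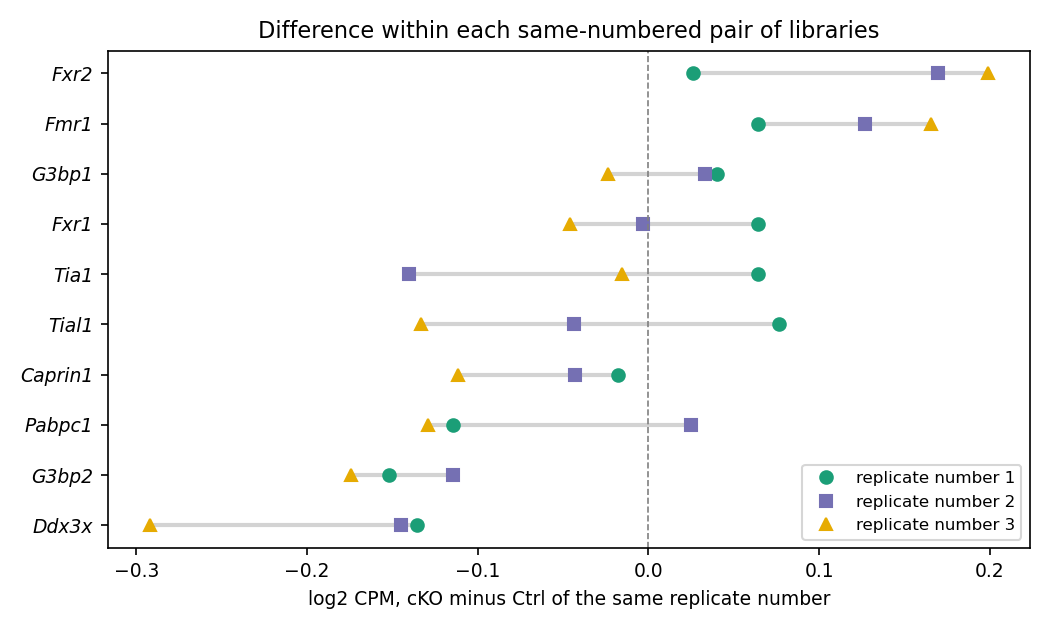
Difference in log2 CPM between the cKO and the Ctrl library of each replicate number, for each member. All 3 differences are negative for Ddx3x, G3bp2 and Caprin1 and positive for Fxr2 and Fmr1.

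Because a ratio of related genes within a library does not depend on library scaling, the balance within each family was compared directly. G3bp1 made up 44.2%, 42.7% and 44.4% of the summed G3bp1 and G3bp2 TPM in Ctrl and 47.5%, 45.3% and 47.1% in cKO. The share was higher in cKO by 2.86 percentage points, by 3.30, 2.56 and 2.71 points in the 3 same-numbered pairs, and the groups were apart. An exact two-sided permutation test gave p = 0.10, the smallest that 3 against 3 libraries allow, and 0.267 after Benjamini-Hochberg adjustment over the 4 shares compared. Fxr1 made up 46.6 ± 0.331% of the FMRP family in Ctrl and 44.3 ± 1.98% in cKO (SD, n = 3; exact permutation p = 0.20). It was lower in pairs 2 and 3, and 0.215 points higher in pair 1. Fmr1 made up 13.6 ± 0.593% and 14.02 ± 0.914% of that family (SD, n = 3; exact permutation p = 0.40). Tia1 made up 64.2 ± 1.44% of the Tia1 and Tial1 sum in Ctrl and 62.9 ± 0.608% in cKO (SD, n = 3; exact permutation p = 0.20). In CPM this last share differed by 0.0522 points in the other direction. Single libraries moved 3 of the 4 share differences by more than 1.5 times. The Fmr1 difference, 0.458 points, became 0.124 or 0.690 on removal of Ctrl replicate 1 or 3, and 0.943 or 0.0357 on removal of cKO replicate 1 or 3. The Fxr1 difference, -2.28 points, was -1.37 without cKO replicate 3, and the Tia1 difference, -1.28 points, was -0.467 without Ctrl replicate 2. The G3bp1 difference stayed between 2.34 and 3.52 points.

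**Figure D4:**
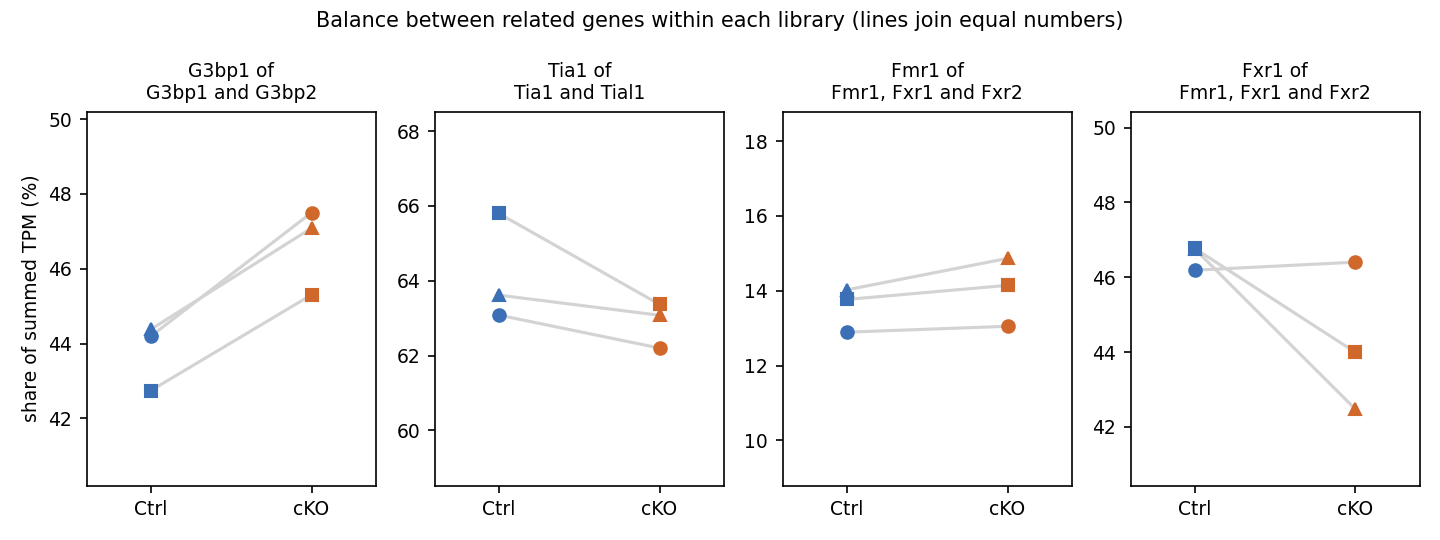
Share of a gene in the summed TPM of its family, in percent, for 4 shares; each point is a library, lines join equal replicate numbers, and each panel spans 10 percentage points. The share of G3bp1 is higher in every cKO library, at 45.3% to 47.5%, than in every Ctrl library, at 42.7% to 44.4%.

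Tia1 and Tial1, paralogues with RNA recognition motifs and a prion-like tail in their proteins, had no estimate beyond its error. Tia1 stood at 154, 204 and 187 CPM in Ctrl and at 161, 185 and 185 CPM in cKO. The number 1 libraries of both groups were the lowest, and the groups overlapped (log2 fold change -0.04, SE 0.10, edgeR adjusted p 0.942). Tial1 stood at 74.4, 90.1 and 92.5 CPM in Ctrl and at 78.4, 87.4 and 84.3 CPM in cKO, again lowest in the number 1 libraries (log2 fold change -0.04, SE 0.09, edgeR adjusted p 0.927). In deposited TPM the Tial1 estimate turned to 0.07 on the log2(TPM + 1) scale (SE 0.11), while counts put it below 0.

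TPM and CPM part between libraries through their scaling, which moves all genes of a library alike. Fxr1, for instance, stood at 98.5, 104 and 104 TPM in Ctrl replicates 1 to 3, beside 118, 117 and 117 CPM. For single genes they also part where the mean length of a gene's transcripts differs between libraries. That length was derived from each deposited count and FPKM, which divides counts by length and library total. For Tial1 it was 3221, 3375 and 3407 bases in Ctrl replicates 1 to 3 and 3133, 3206 and 3065 bases in cKO replicates 1 to 3. Every cKO library was below every Ctrl library, though Ctrl replicate 1 and cKO replicate 2 lay close. The log2 difference was -0.09 (SE 0.03), a change of -5.97% in mean length, the 27th in size of 6959 genes with at least 500 counts and 3 FPKM in every library. By limma over these genes it did not pass (adjusted p 0.800, and 0.910 with the block). By limma no gene was called with or without the block, 0% of the 6959, and 287 had an unadjusted p under 0.05 without it. Groups were apart for 7.40% of these genes and for 2 members, Tial1 and Fxr2, whose length differed by -0.382%. The other 8 members differed by less than 0.5% between group means. GENCODE M21 lists 6 coding transcripts for Tial1. The deposited values are per gene, so which transcripts differ was not measured, and this measure was looked at after the Tial1 values had been seen.

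**Figure D5:**
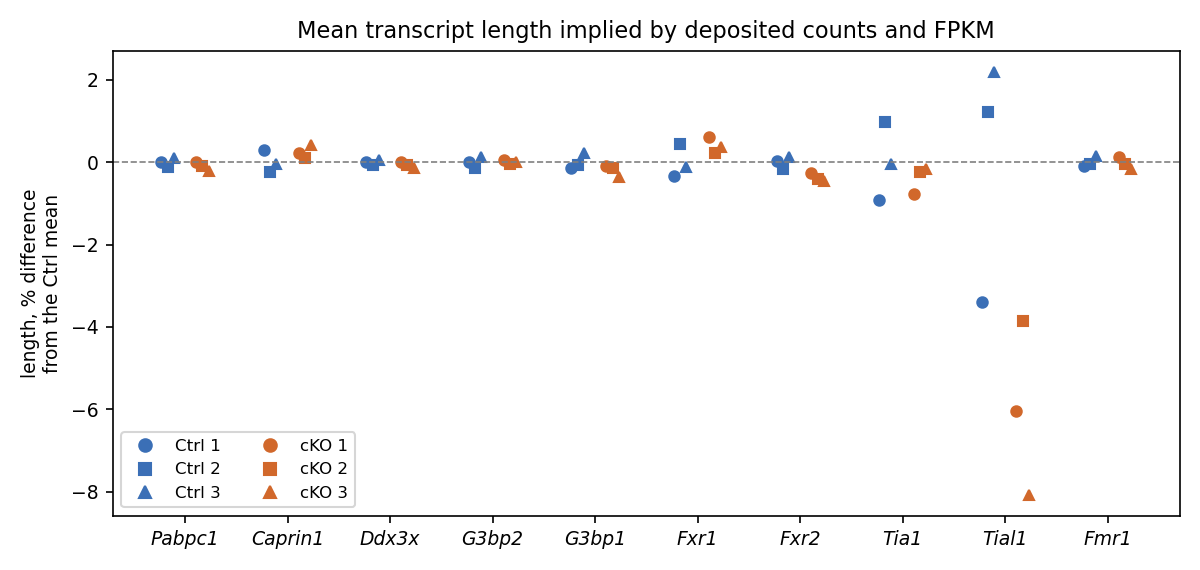
Mean transcript length implied by deposited counts and FPKM, as percent difference from the Ctrl mean of the same gene, for the 6 libraries. Tial1 is spread most, with cKO libraries at 3065 to 3206 bases and Ctrl libraries at 3221 to 3407 bases; the other members lie close to 0.

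Pabpc1, which binds poly(A) tails and links them to the cap-binding complex, was the most abundant member and overlapped between groups. It stood at 611, 570 and 576 CPM in Ctrl and at 564, 580 and 527 CPM in cKO (log2 fold change -0.07, SE 0.07, 95% interval -0.23 to 0.09, edgeR adjusted p 0.818). The cKO library was lower in pairs 1 and 3 and higher in pair 2. Of 8 tested paralogues of members, none passed with or without the block. Pabpc4, another cytoplasmic poly(A)-binding protein gene, stood at 91.8, 83.8 and 86.9 CPM in Ctrl and 79.4, 77.8 and 80.8 CPM in cKO (log2 fold change -0.14, SE 0.07, edgeR adjusted p 0.470). Pabpn1, which acts on poly(A) tails in the nucleus, had -0.15 (SE 0.12, edgeR adjusted p 0.723). All 3 estimates were below 0.

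Fmr1, Fxr1 and Fxr2 encode FMRP and its relatives, RNA-binding proteins that restrain translation and travel in neuronal granules. Fxr2 stood at 141, 131 and 132 CPM in Ctrl and 144, 148 and 151 CPM in cKO, so the groups were apart by a narrow margin in CPM, and in TPM they overlapped. Its log2 fold change was 0.13 (SE 0.07, 95% interval -0.01 to 0.27, edgeR adjusted p 0.527, and 0.177 with the block). Without both libraries numbered 1 and with the block it was 0.18 and passed (edgeR adjusted p 0.0199). Fmr1 stood at 66.3, 68.4 and 70.4 CPM in Ctrl and 69.3, 74.7 and 79.0 CPM in cKO, where cKO replicate 1 fell within the Ctrl range (log2 fold change 0.12, SE 0.07, edgeR adjusted p 0.613). Fxr1 stood at 118, 117 and 117 CPM in Ctrl and 124, 116 and 113 CPM in cKO, with cKO libraries on both sides of Ctrl (log2 fold change 0.0059, SE 0.06, edgeR adjusted p 0.984). For Fmr1 and Fxr2 the 95% intervals without the block reached 21.0% and 20.9% higher.

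Other genes of the same granules and their neighbours were also mostly uncalled. Of 54 further stress granule genes, none passed without the block and 3 were lower with it, with a median log2 fold change of -0.00025 over the list. The 3 were Rack1, a ribosome-bound scaffold protein (762, 645 and 615 CPM in Ctrl; 604, 502 and 494 CPM in cKO; blocked log2 fold change -0.34, edgeR adjusted p 0.000306), Purb, a single-strand nucleic acid binding protein (-0.21, 0.0245), and Eif4b, a cofactor of the initiation helicase (-0.17, 0.0451). Of 24 genes of P-bodies, the neighbouring granules of mRNA decay, none passed without the block. With the block 1 was lower: Dcp2, the decapping enzyme, at 68.2, 72.8 and 75.6 CPM in Ctrl and 54.9, 59.8 and 61.5 CPM in cKO (-0.30, edgeR adjusted p 0.00381). The median over the P-body list was 0.0079. Among 12 genes for FMRP partners and known mRNA targets, Dlg4, a postsynaptic scaffold gene, was lower with the block (-0.25, edgeR adjusted p 0.0159). Among 7 genes for eIF2α, its kinases and its phosphatase subunits, Ppp1r15a was higher with the block (0.28, edgeR adjusted p 0.0270). Ppp1r15a, the stress-induced subunit that reverses eIF2α phosphorylation, stood at 24.4, 23.9 and 24.6 CPM in Ctrl and 32.1, 28.6 and 28.1 CPM in cKO, with groups apart. The shares called on these lists compare with 5.33% of all genes in the blocked model, and 1 of 10 members.

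The labelled tissue showed its defining markers, with summed TPM of 10 sensory neuron markers at 9859 to 10302 in Ctrl and 9334 to 10959 in cKO. With the block 2 of them were lower, Isl1 (blocked log2 fold change -0.21, edgeR adjusted p 0.00833) and Ntrk2 (-0.26, 0.00778). In that model 3.56% of tested genes were lower and 1.76% higher. Without the block no sensory neuron, glial or macrophage marker was called. Of 8 glial markers 5 were higher with the block. The sum of all 8 was 2351 to 2390 TPM in Ctrl and 2482 to 2518 TPM in cKO. Most of that sum was Fabp7, named after its values were seen, at a mean of 1847 TPM. Fabp7 was not called (blocked log2 fold change 0.014, edgeR adjusted p 0.900). The glial markers with the largest fold were S100b (blocked log2 fold change 0.44, edgeR adjusted p 0.0204) and Cdh19 (0.36, 0.0196). All 8 macrophage markers had positive estimates, with a sum of 86.4 to 100 TPM in Ctrl and 108 to 144 TPM in cKO, and C1qb was higher with the block (0.43, edgeR adjusted p 0.0133). Erythroid markers summed to 59068 TPM in cKO replicate 1 and to 16195 to 27529 TPM in the other 5 libraries. The sum over the 10 stress granule genes was 1473, 1574 and 1619 TPM in Ctrl and 1402, 1578 and 1552 TPM in cKO. It was lowest in cKO replicate 1 and next lowest in Ctrl replicate 1. The group means differed by -44.7 TPM with cKO replicate 1 and by 9.50 TPM without it. In CPM the same sum was 2818, 2806 and 2925 in Ctrl and 2719, 2737 and 2707 in cKO, with the groups apart. Endothelial markers summed to 212 to 224 TPM in Ctrl and 208 to 232 TPM in cKO, mesenchymal ones to 480 to 559 TPM and 520 to 567 TPM, muscle ones to 4.78 to 7.88 TPM and 6.16 to 9.12 TPM, and spinal cord ones to 1.68 to 2.29 TPM and 2.26 to 3.40 TPM. Of the 7 spinal cord markers 2 had enough counts to be tested, and their estimates differed in sign. Pax6, a transcription factor gene of neural progenitors, was near the floor, at 0.174, 0.179 and 0.245 CPM in Ctrl and 0.750, 1.05 and 0.875 CPM in cKO. Only through its cKO libraries did Pax6 have enough counts to be tested, so its edgeR call cannot be read as a result. Nkx6-1, named after its values were seen, was estimated at -0.15 on the log2 scale (SE 0.29, edgeR adjusted p 0.909). No marker listed for any of these 8 tissues or cell types was at 0 in all 6 libraries. The part of these differences in the estimates for Ddx3x, G3bp2 and Fxr2 was not tested.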

How the data were processed

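RNA-seq libraries of 3 cKO and 3 Ctrl samples were used. The tools RSEM 1.3.1, HISAT2 2.2.1 and Bowtie2 2.4.5, and the build GRCm38 (mm10), are listed in the submitters' processing notes without role or order. The deposited table gives the authors' estimated counts, not normalized, beside their TPM and FPKM for each library. Of the members, G3bp2 alone had counts with a fractional part. Counts were rounded; filterByExpr of edgeR left 14338 of 17971 genes. Testing used edgeR 4.0.16 in R 4.3.3 (TMM scaling; quasi-likelihood F, robust, two-sided), with Benjamini-Hochberg adjustment over all tested genes and a threshold of 0.05. Intervals are 95% and SEs come from the F statistic.

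Replicate numbers were taken to pair the samples, since same-numbered libraries share the start of a sample code and their deviations from the group means correlated at 0.383, 0.220 and 0.189 across genes. The block is an alternative, and its values are given where they change a call. On counts simulated for cKO against Ctrl over 14338 genes, the model without the block recovered 22% of 1.2-fold, 66% of 1.3-fold and 100% of 1.5-fold changes among genes with counts like those of the members. The blocked model, on counts simulated with effects of the number, recovered 70% of 1.2-fold and 100% of 1.3-fold changes. Each simulation gave all genes the same dispersion, and the one without the block held no effects of the number. The members differed in their spread within groups, from 0.0192 (G3bp2) to 0.169 (Tia1) in log2 CPM. Recovery for a given member may therefore differ from these values.

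Alternatives used DESeq2 1.42.0, limma 3.58.1 (voom, and log2(TPM + 1)), other scalings and filters, and fewer libraries. Named genes were all members, Ybx1, and for each other list up to 4 genes called in either model, by size of fold change, or else its 2 most highly expressed; of lists with no call only Pabpc4 and Pabpn1 are given. Not every glial marker chosen this way is reported here. The members, lists and tests were chosen with earlier results of these data known. The design text calls the samples of a group biological, and does not say which embryos or litters each holds, so p-values measure the spread between these samples. Motifs, implied lengths, group overlap in TPM and in CPM by library totals, and the removal of both libraries of a number without the block were chosen after the data had been seen.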

Additional observations from a re-analysis of the deposited data

How the results depend on the processing

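No member was called in any of the 17 alternatives without the block. The count of members called was 1 with the replicate block and 2 (Ddx3x and Fxr2) with the block and without both libraries numbered 1. The median log2 fold change of the members moved by less than its spread between pairs (SD 0.056) in every alternative, from -0.068 to -0.0019. Over all genes, where 69 were called, the count was 44 with library totals, 173 with the DESeq2 test, 128 with no filter, 15 with either TPM pseudocount (1 or 0.1), 764 with the replicate block (799 with block and library totals), and 1252, 260 and 836 with the block and without both libraries numbered 1, 2 or 3. Without the block those removals, added after seeing the data, gave 731, 8 and 2; leaving out single libraries gave 18 to 104. With library totals 63.6% of called genes were lower, against 76.8% with TMM.

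Estimates near 0 changed sign. Leaving out single libraries, log2 fold changes ran from -0.030 to 0.051 for G3bp1, -0.14 to 0.054 for Tia1, -0.13 to 0.020 for Tial1 and -0.031 to 0.031 for Fxr1. Without both libraries of a number, Fxr1 was -0.024 (number 1, with or without the block), Tia1 0.023 with the block and 0.020 without (number 2), and Tial1 0.015 and 0.012 (number 3). Tial1 was 0.065 and 0.066 in TPM with pseudocounts of 1 and 0.1, where the shorter implied length enters. The summed TPM difference ran from -85.7 to 9.50 on leaving out single libraries, and the sum in CPM differed by -128. The share of Tia1 differed by 0.0522 points in CPM, against -1.28 in TPM. As a paired value the G3bp1 share has by construction the same difference, 2.86 points (exact sign-flip permutation p = 0.25, the smallest 3 pairs allow). In CPM the G3bp1 share differed by 2.52 points. Since its groups were apart in TPM, leaving out a single library could not change its direction. Leaving out single libraries, the share differences ran from 2.34 to 3.52 points for G3bp1, 0.0357 to 0.943 for Fmr1, -3.34 to -1.37 for Fxr1 and -1.82 to -0.467 for Tia1. Counting error alone, as the Poisson SD of a log2 count, was 0.0128 (Caprin1) to 0.0415 (Fmr1). It was 0.0191 for G3bp2, beside a spread within groups of 0.0192, and 0.0182 for Ddx3x, beside 0.107.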
